A study of Mus musculus with 7 samples.

Results

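The 9 genes described here mark lymphocytes and the lymph node: Cd79a, Cd79b, Cd22 and Ms4a1 of B cells, Cd3e and Cd3g of T cells, and Il7r, Ltb and Ccr7, which lymphocytes share or use to enter and organise lymphoid tissue. They were chosen by name, as the probe sets annotated to exactly 1 of these symbols, and they are 9 of 18193 genes and 12 of 34945 singly annotated probe sets on the array. Each gene is given by its probe set of highest mean log2 signal over all arrays. The samples are mammary glands of virgin female FVB/PyV-Mt mice, taken at 8 weeks of age. The tested animals received 4 weeks of chow supplemented with 1% CLA, short for conjugated linoleic acid, a group of isomers of linoleic acid (4 arrays), and the others received control AIN93G chow (3 arrays). Both groups carry PyV-MT, the polyoma virus middle T oncogene that gives rise to mammary tumours, whose promoter the labels do not name. Glands without the oncogene were not analysed here. The study assigned 6 mice to CLA chow and 5 to control chow, and 1 animal per array is assumed, since every sample is labelled as a mouse. If arrays shared an animal, the p-values would measure technical spread only.

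B cells recognise antigen through a surface immunoglobulin that signals through the paired chains CD79A and CD79B, while CD22 restrains this signal and MS4A1 is the surface antigen CD20. T cells recognise antigen through a receptor that signals through the CD3 chains, to which CD3E and CD3G belong. IL7R binds interleukin 7, on which naive lymphocytes depend, CCR7 guides lymphocytes and dendritic cells into lymph nodes, and LTB is the membrane lymphotoxin chain that shapes lymph node stroma. The mouse mammary fat pad contains a lymph node, so a gland sample may hold it wholly, in part or not at all. The question was whether the diets differed in these transcripts and whether a single gland stood out in all of them. In bulk tissue, fewer cells of a type and less RNA per cell cannot be told apart.

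Stretches of 250 bases upstream of a transcription start are shown for 2 members. They are Cd22, the member whose diet groups did not overlap, and Ltb, the member with the largest log2 difference. Both come from RefSeq, build GRCm38.p6, 5′ to 3′ on the strand of the gene. The Cd22 stretch lies at chr7:30879029-30879278 on the minus strand and that of Ltb at chr17:35194257-35194506 on the plus strand. The Cd22 gene spans chr7:30865404-30880342, so its stretch precedes a start inside the gene and not its outermost start. Capitals mark a match to TCCCNNGGGA, the letters bound by the B cell factor EBF1.
Cd22: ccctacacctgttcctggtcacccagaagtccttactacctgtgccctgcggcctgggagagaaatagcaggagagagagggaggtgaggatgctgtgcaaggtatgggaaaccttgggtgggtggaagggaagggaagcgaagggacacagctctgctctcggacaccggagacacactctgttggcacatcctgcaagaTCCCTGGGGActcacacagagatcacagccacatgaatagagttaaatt
Ltb: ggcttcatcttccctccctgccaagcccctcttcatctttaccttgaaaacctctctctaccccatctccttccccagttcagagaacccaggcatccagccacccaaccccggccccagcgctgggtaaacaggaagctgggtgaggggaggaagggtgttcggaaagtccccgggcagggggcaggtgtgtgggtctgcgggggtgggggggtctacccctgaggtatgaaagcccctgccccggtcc
The table held 6 of the 9 members, namely Cd79a, Cd22, Cd3e, Cd3g, Il7r and Ltb. Both strands of the 250 bases were searched for 4 motifs, which did not overlap in these windows. The EBF motif was found for 1 of the 6, Cd22, at positions -49 to -40 from that inner start, and in 0.779% of 32851 promoters. The octamer ATGCAAAT (1.60% of promoters), the E-box CAGCTG (13.0%) and the RUNX motif TGTGGT (14.0%) were found for 0 of the 6. A match describes the letters of the window and is not a site of binding. Only these exact letters were searched, so a window without a match may still hold a site that departs from them.

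The values are MAS5 signals, linear intensities with the same trimmed mean, 500.003, on each array. The labels give the sex as female, and Xist, the RNA that coats the inactive X chromosome of females, had 11397, 9108, 10784 and 5660 on CLA replicates 1 to 4, against 10042, 94.1 and 78.0 on control replicates 1 to 3. The 13 probe sets of 6 Y-linked genes (Eif2s3y, Kdm5d, Uty, Usp9y, Zfy2 and Sry) read between 0.708 and 46.7 on all 7 arrays, with a median of 8.33. Control replicates 2 and 3 thus lacked the Xist signal of the other arrays without showing Y-linked signal, and each member's difference is also given without them, which leaves 1 control array, taken to vary like the CLA arrays. Summed luminal epithelial markers (12 genes) read 106893 to 117171 in CLA glands and 101948 to 124857 in control glands. Skeletal muscle differed between glands, with a summed signal of 10 markers of 380.0 to 15381 in CLA glands and 10365 to 98690 in control glands, the highest on control replicate 2. Of 8 white adipocyte markers, all 8 had lower mean log2 signal in CLA glands, with sums of 11152 to 30289 in CLA and 36635 to 46488 in control glands. Actb signal toward the 3′ end relative to the 5′ end, which rises as RNA degrades, stood at 2.78 on CLA replicate 3, while the remaining 6 arrays read 1.41 to 1.88. Title numbers start with 27 on CLA replicate 1 and control replicate 1 and with 28 on the other 5 arrays.

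The 9 genes had low signals in every gland. Over the 63 values (9 genes on 7 arrays) the signal lay between 2.31 and 227, with a median of 52.7, and 34 values exceeded 46.7, the highest reading of the Y-linked probe sets, whose genes female glands do not carry. Probe sets differ in brightness for the same amount of RNA, so this range is a scale of unspecific signal and not a ranking of transcripts. A filter on mean signal, placed at 57.7, the 40th percentile over probe sets, kept 4 members, Cd22, Cd3g, Il7r and Ltb, and left 5 below it. Cd22 was the only member above 46.7 on all 7 arrays.

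**Figure D1:**
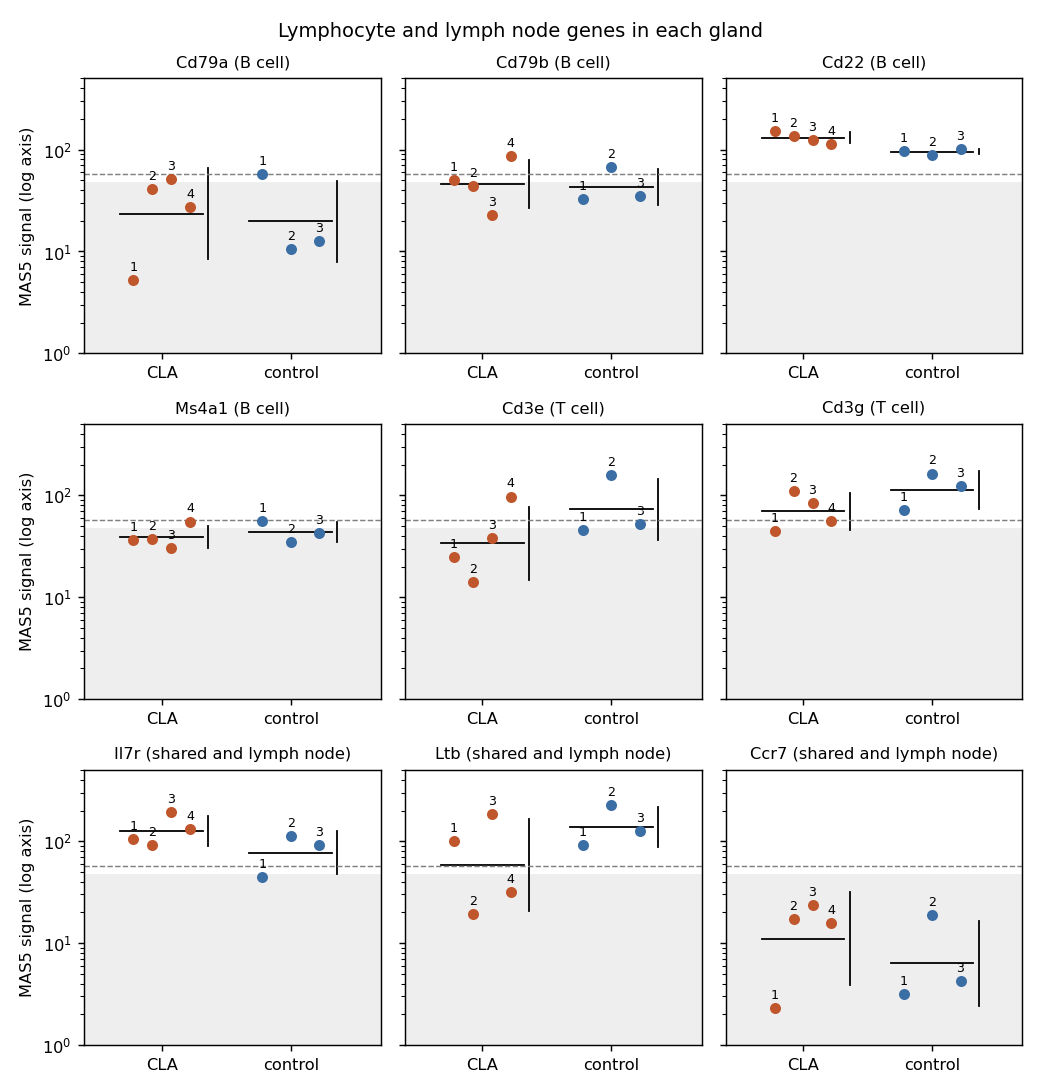
MAS5 signal (log axis) of the 9 genes, CLA glands on the left and control glands on the right of each panel, with the replicate number above each point. Horizontal lines are means and vertical lines 1 SD of log2 signal, the dashed line is the filter signal of 57.7, and grey marks the range up to 46.7 reached by Y-linked probe sets. Only the Cd22 groups do not overlap.

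Among the B cell genes, Cd22 had signals of 152, 137, 124 and 114 on CLA replicates 1 to 4, against 97.3, 88.9 and 101 on control replicates 1 to 3. Every CLA gland read higher than every control gland. The mean was 132 ± 16.5 (SD, n = 4) in CLA and 95.6 ± 6.01 (SD, n = 3) in control glands. The log2 change, CLA minus control, was 0.46 ± 0.24 (SE, 95% interval -0.08 to 0.99). It did not pass, with a limma adjusted p of 0.915. Across all genes past the filter, 2.64% had CLA glands wholly above control glands, and without the filter 2.66%. A further, dimmer Cd22 probe set read 17.3 to 43.7 in CLA and 4.33 to 23.2 in control glands, with a log2 difference of 1.28 and overlapping groups. The Cd22 difference was 0.64 between CLA replicate 1 and control replicate 1, the title number series 27, and 0.40 among the arrays of series 28 (limma adjusted p = 0.727). It was 0.43 without control replicates 2 and 3.

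Cd79a, the first signalling chain of the B cell receptor, had 5.26, 40.7, 51.5 and 27.5 on CLA replicates 1 to 4, against 57.0, 10.5 and 12.7 on control replicates 1 to 3. The highest and the lowest gland were thus a control and a CLA gland of the same title number series, and the groups overlapped. Its partner Cd79b had 50.4, 44.3, 22.9 and 85.9 in CLA glands, against 32.8, 68.1 and 34.9 in control glands. The 2 chains were not high in the same glands, since Cd79b was highest on CLA replicate 4 and Cd79a on control replicate 1. Ms4a1 had 36.3, 37.4, 30.3 and 55.4 in CLA glands, against 56.2, 35.3 and 42.3 in control glands, a narrow and overlapping range. These 3 genes were below the filter, with log2 differences of 0.25 for Cd79a, 0.10 for Cd79b and -0.17 for Ms4a1. Fitted without the filter, limma's adjusted p was 0.996, 0.998 and 0.996 in that order, and the 95% interval of Cd79a ran from -1.77 to 2.27. The dimmer Ms4a1 probe set had a difference of the other sign, 0.92, and read 0.850 to 27.3 over all arrays. For Cd79a the difference was -3.44 for the array pair of the 27 series, 1.74 among arrays of the 28 series and -1.28 without control replicates 2 and 3, so its direction rested on which glands entered. The Cd79b difference ran from -0.20 (without CLA replicate 4) to 0.44 (without control replicate 2) with 1 array left out, and was 0.62 for the pair of the 27 series, -0.14 in the 28 series and 0.48 without control replicates 2 and 3. The Ms4a1 difference ran from -0.34 (without CLA replicate 4) to 0.01 (without control replicate 1), and was -0.63 for the pair of the 27 series, 0.04 in the 28 series and -0.53 without control replicates 2 and 3. The direction of both thus turned with single arrays.

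The T cell members Cd3e and Cd3g had lower mean signal in CLA glands, and neither passed. Cd3e had 24.6, 14.1, 38.5 and 97.5 on CLA replicates 1 to 4, against 45.8, 160 and 52.7 on control replicates 1 to 3. CLA replicate 4 lay above 2 of the 3 control glands. Its log2 difference was -1.11, with a 95% interval from -2.68 to 0.46 in the fit without the filter (limma adjusted p = 0.957). Cd3g had 44.8, 111, 84.9 and 55.5 in CLA glands, against 71.5, 164 and 123 in control glands, again with overlap. Its log2 change was -0.70 ± 0.41 (SE, 95% interval -1.63 to 0.23), with a limma adjusted p of 0.931. Both genes were highest on control replicate 2, and without that array the differences were -0.54 for Cd3e and -0.43 for Cd3g. Without control replicates 2 and 3 they were -0.44 and -0.04. Control replicate 2 also had the highest summed muscle signal, 98690, and the part of muscle in these differences was not tested. For the array pair of the 27 series the differences were -0.89 for Cd3e and -0.68 for Cd3g, and among the arrays of the 28 series they were -1.29 and -0.82. Cd3d, the third CD3 chain measured, had 3.35, 34.1, 43.7 and 17.1 in CLA glands, against 12.3, 52.4 and 4.46 in control glands. It was below the filter, with a log2 difference of 0.27, opposite in sign to Cd3e and Cd3g. Its readings other than control replicate 2 lay within the range of the Y-linked probe sets, so no direction is read from it. Cd3e was below the filter as well, and its readings on CLA replicates 1 to 3 and control replicate 1 lay within that range. The same limit thus holds for the direction of Cd3e.

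Ltb, the lymphotoxin chain, had 101, 19.3, 187 and 31.5 on CLA replicates 1 to 4, against 92.0, 227 and 125 on control replicates 1 to 3. CLA replicates 2 and 4 read below every control gland, and CLA replicates 1 and 3 lay within the control range. The readings of CLA replicates 2 and 4 were also within the range of the Y-linked probe sets. Its log2 change was -1.24 ± 0.73 (SE, 95% interval -2.88 to 0.39), with a limma adjusted p of 0.931. The difference was 0.13 for the array pair of the 27 series and -1.80 among arrays of the 28 series. It was -0.71 without CLA replicate 2, -0.88 without control replicate 2 and -0.66 without control replicates 2 and 3. Ltb, like both CD3 genes, was highest on control replicate 2, the gland with the most muscle signal, and the part of muscle was not tested.

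Il7r had 105, 91.4, 195 and 132 on CLA replicates 1 to 4, against 44.4, 113 and 92.5 on control replicates 1 to 3. Its highest gland was CLA replicate 3 and its lowest control replicate 1, and the groups overlapped. The log2 change was 0.70 ± 0.40 (SE, 95% interval -0.19 to 1.59), with a limma adjusted p of 0.931. The dimmer Il7r probe set had a difference of 0.92, and over the 7 arrays the pair of probe sets had a Pearson correlation of 0.860, given as a description. The Il7r difference was 1.25 for the array pair of the 27 series and 0.38 among arrays of the 28 series. It was 0.30 without control replicate 1 and 1.50 without control replicates 2 and 3. Ccr7 had 2.31, 17.3, 23.6 and 15.8 in CLA glands, against 3.13, 18.8 and 4.27 in control glands, all within the range of the Y-linked probe sets. Its log2 difference was 0.81, with a 95% interval from -1.44 to 3.06 in the fit without the filter (limma adjusted p = 0.996). The Ccr7 difference was -0.44 for the array pair of the 27 series and 1.06 among arrays of the 28 series. It ran from 0.30 (without control replicate 1) to 1.59 (without control replicate 2) with 1 array left out, and was 1.82 without control replicates 2 and 3. Il7r and Ccr7 were both highest on CLA replicate 3, the array with the Actb ratio of 2.78, and the part of RNA quality was not tested.

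**Figure D2:**
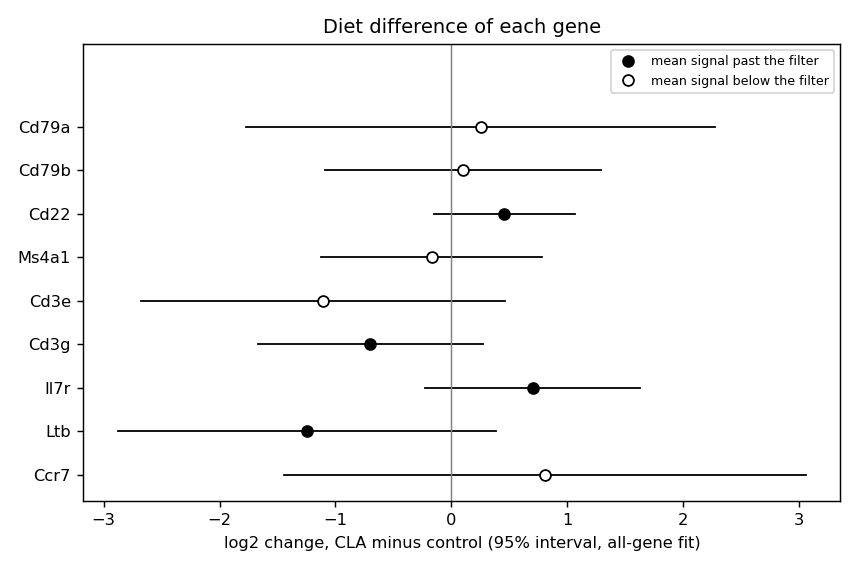
Log2 change (x axis, CLA minus control) of the 9 genes with 95% intervals from limma's fit of all 18193 genes without the filter. Filled points are the 4 genes whose mean signal passed the filter, and every interval includes 0.

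Of the 4 members that passed the filter, 0 were called at a limma adjusted p under 0.05, where 0% of the 12497 genes tested were called. At an unadjusted p under 0.05 the members gave 0 of 4, against 5.39% of genes tested, and in the fit without the filter 0 of 9, against 5.34% of 18193 genes. Of the 9 members 1 had groups that did not overlap, against 5.41% of all genes without the filter. The log2 differences were positive for 5 members and negative for 4, with a median of 0.10, beside a median of 0.02 over all genes. With 1 array left out the median ran from -0.20 to 0.05 and was negative in 5 of the 7 cases. The intervals of Ltb and Cd3e reach below -2 and those of Cd79a and Ccr7 above 2 log2 units, so differences of that size and direction were not excluded.

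No gland was high in all members. Of the 9 genes, 3 were highest on control replicate 2 (Cd3e, Cd3g and Ltb), 2 on control replicate 1 (Cd79a and Ms4a1), 2 on CLA replicate 3 (Il7r and Ccr7), 1 on CLA replicate 1 (Cd22) and 1 on CLA replicate 4 (Cd79b). The mean deviation of the 9 genes from their own means, in log2 units, was -0.57, -0.18, 0.35 and 0.22 on CLA replicates 1 to 4, against -0.19, 0.49 and -0.13 on control replicates 1 to 3. Over the 36 pairs of members the Pearson correlation across the 7 arrays had a median of -0.04 and ran from -0.78 to 0.64, with 18 pairs above 0 and 18 below. The 6 pairs of B cell genes had a median of -0.10, from -0.44 to 0.34. These correlations are descriptions over 7 arrays that share a scaling.

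**Figure D3:**
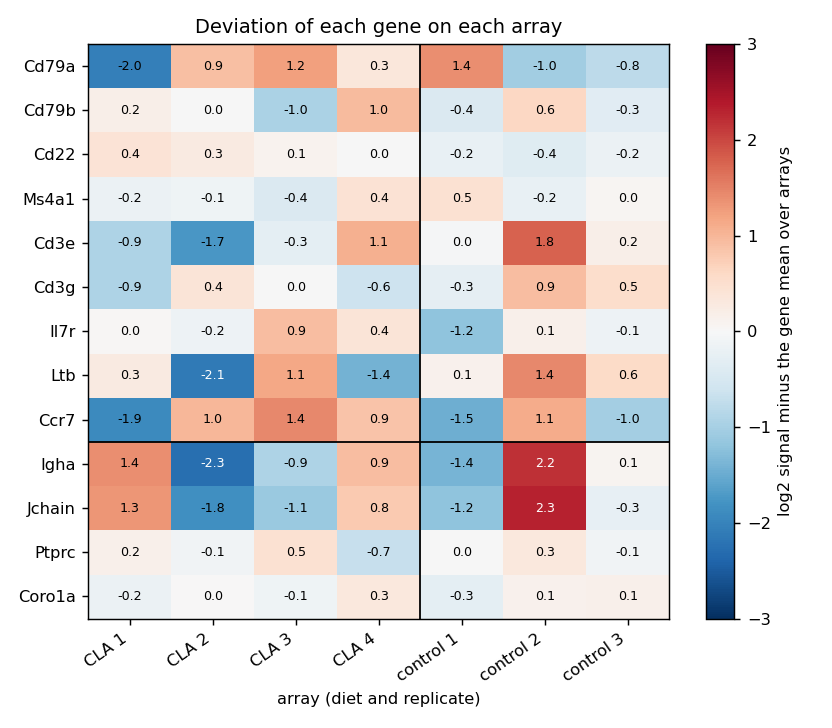
Deviation of each gene's log2 signal from its own mean, by array, CLA glands left of the vertical line and control glands right of it, for the 9 members above the horizontal line and 4 other immune genes below it. Igha and Jchain share their pattern over the arrays (Pearson correlation 0.988), while the highest array differs among the members.

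The 8 genes past the filter whose pattern over the 7 arrays was most like the mean of the members were Tor2a, Smyd4, Ciao2a, Samd8, Pltp, Lmntd2, Tarsl2 and Acvr2a, with Pearson correlations from 0.955 to 0.983. For the B cell members the nearest were Cldn6, 4930563E22Rik, Cep128, 1700066M21Rik and Mrpl2 (0.932 to 0.969), and for the T cell members Rhof, Fndc3a, Crlf2, Urgcp and Ppip5k1 (0.961 to 0.986). Of these 18 genes, 0 belonged to any of the lists of immune or other cell type genes used here. The lists hold a small part of the 12493 genes compared, so a count of 0 was likely in advance. No conclusion is drawn from it. The correlations were taken over 7 arrays among 12493 genes and are descriptions. The mean of the members counts each gene alike, including the 5 below the filter, so low signals enter the pattern that was matched.

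No other gene of B cells or T cells passed the test. Of 17 other B cell genes 16 were named on the array and 10 passed the filter, and 0 were called by limma after adjustment. Over all genes without the filter, 5.41% had groups that did not overlap, in either direction. Of the 10 B cell genes past the filter, 1 had CLA glands wholly below control glands. That gene was Ebf1, a B cell factor also made in fat, with signals of 150.0 to 203 in CLA and 214 to 226 in control glands and a log2 change of -0.34 ± 0.21 (SE), and 1 of its 5 probe sets had a positive difference. Blnk, the adaptor that links the B cell receptor to its kinases, had 0.30, with 2704 to 3247 in CLA and 2193 to 2705 in control glands. It was the 1 gene of this list with an unadjusted limma p under 0.05 (0.047, limma adjusted p = 0.904), against 5.39% of genes tested. Which cells gave the Blnk signal was not tested. Cd72, a B cell co-receptor, had 0.46. The median change of the 16 named genes was 0.11, beside 0.02 over all genes. Of 27 other T cell genes 24 were named and 7 passed the filter, 0 were called, and the median of the 24 was 0.01. Among the 24, 13 differences were positive and 11 negative. Satb1, a chromatin organiser of T cells also present elsewhere, had 971 to 1165 in CLA and 729 to 962 in control glands, without overlap, and a change of 0.31 ± 0.16 (SE). Bcl11b, a factor of T cell identity, had 0.63, and the costimulatory receptor gene Icos 1.04, both with overlap. Icos read 15.9 on control replicate 2, within the range of the Y-linked probe sets. Cd4, the co-receptor of helper T cells, read 10.4 to 19.9 in CLA and 12.3 to 15.3 in control glands, within the range of the Y-linked probe sets. Cd2, an adhesion molecule of T and NK cells, was below the filter with 21.9, 4.96, 25.4 and 69.3 in CLA glands, against 39.8, 77.0 and 73.2 in control glands. Its difference was -1.54, and like Cd3e it was highest on control replicate 2. The Cd2 readings on CLA replicates 1 to 3 and control replicate 1 lay within the range of the Y-linked probe sets. Cd8a, another listed T cell gene, passed the filter with 89.0 to 135 in CLA and 94.2 to 152 in control glands. Its difference was 0.0006, and it was highest on control replicate 3. Over the 5 Cd8a probe sets the difference ran from -0.69 to 0.14, with 3 positive and 2 negative.

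Among the signalling and tissue partners of the members 0 genes were called by limma. Of 17 kinases, adaptors and phosphatases downstream of the antigen receptors, 15 were named and 13 passed the filter, with a median of -0.02 over the named genes. Vav1, an exchange factor of both receptors, had 86.0 to 106 in CLA and 114 to 126 in control glands, a change of -0.34 ± 0.24 (SE) without overlap, while the other Vav1 probe set had 0.32. Prkcb, a kinase that acts after the B cell receptor, had 0.45 and the adaptor gene Pik3ap1 0.43. Of the 3 Prkcb probe sets, 1 had a negative difference, -1.56. Of 17 ligands, receptors and effectors that pair with Ltb, Il7r and Ccr7, 13 were named and 9 passed the filter, with a median of 0.02 over the named genes. Nfkb2, which carries the lymphotoxin receptor's signal to the nucleus, had 273 to 345 in CLA and 347 to 410 in control glands, a change of -0.35 ± 0.18 (SE) without overlap, while the other Nfkb2 probe set had 0.36. Map3k14, the kinase upstream of it, had 0.35, and Cxcl13, the chemokine that draws B cells into follicles, 0.59 with 48.1 to 99.7 in CLA and 19.2 to 97.5 in control glands. The lowest Cxcl13 reading, 19.2, lay within the range of the Y-linked probe sets, and the other Cxcl13 probe set had -0.41.

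Genes of other blood-derived cells gave 0 calls as well. The 15 genes of all blood-derived cells, all past the filter, summed to 13816 to 14858 in CLA and 12303 to 15529 in control glands, with a median change of 0.01. The 3 of smallest p were Lcp1, an actin bundler of leukocytes (log2 change 0.22), Evi2a (0.27) and the tetraspanin gene Cd53 (0.22). The other probe set of Evi2a had -0.73 and that of Cd53 -0.45. Ptprc, the leukocyte antigen CD45, had 1177, 979, 1436 and 649 in CLA glands, against 1039, 1305 and 969 in control glands. Its log2 difference was -0.11, and that of the other Ptprc probe set -0.84. Coro1a, a leukocyte actin regulator, had 962 to 1343 in CLA and 879 to 1204 in control glands. The 12 macrophage markers summed to 22183 to 28250 in CLA and 20135 to 25399 in control glands, with a median of 0.14 and 0 called. Among them Cd163, a scavenger receptor of tissue macrophages, had 87.1 to 150 in CLA and 222 to 262 in control glands, a change of -1.06 ± 0.24 (SE) with a limma adjusted p of 0.576. The Fc receptor gene Fcgr1 had 0.52 and the lysosomal gene Cd68 0.26. Of 9 dendritic cell markers 4 passed the filter and 0 were called, with a median of -0.01 over the 9, and Zbtb46, Cd209a and Batf3 had -0.42, -0.48 and -0.41. Among the 4 Zbtb46 probe sets, 2 had a positive difference, up to 0.53. Of 12 NK and cytotoxic genes 6 passed and 0 were called, with a median of -0.21 over the 12. The granzyme gene Gzmb had -1.34, the chemokine gene Ccl5 1.20 and the granule gene Nkg7 -0.62, all with overlapping groups. Gzmb read 10.9 and Nkg7 18.7 on CLA replicate 4, and Ccl5 26.6 and 33.5 on control replicates 1 and 3. Those readings lay within the range of the Y-linked probe sets. The highest Ccl5 reading, 214, was on control replicate 2.

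The IgA genes Igha and Jchain varied together across glands and not by diet past the test. Igha, the heavy chain of IgA, had 5103, 403, 1030 and 3667 on CLA replicates 1 to 4, against 738, 8931 and 2053 on control replicates 1 to 3. Jchain, which joins IgA molecules into dimers, had 1093, 122, 201 and 753 in CLA glands, against 189, 2167 and 367 in control glands. Both genes were highest on control replicate 2 and lowest on CLA replicate 2, with 22.2-fold and 17.7-fold ranges, and the diets overlapped. The log2 change was -0.51 ± 0.97 (SE) for Igha and -0.49 ± 0.92 for Jchain, and limma's adjusted p was 0.997 for each. Across arrays the correlation of Igha with the members ran from -0.79 (Cd79a) to 0.69 (Cd3e). Of 9 plasma cell and immunoglobulin genes named on the array 7 passed the filter, 0 were called and the median of the 9 was -0.42. Ighm, the heavy chain of IgM, had 683 to 1124 in CLA and 459 to 628 in control glands on its brightest probe set, a change of 0.63 ± 0.23 (SE) without overlap and a limma adjusted p of 0.834. Of the 11 Ighm probe sets 8 had a difference of the other sign. Mzb1, a plasma cell chaperone, had -0.42 and Pou2af1, a B cell coactivator, -0.30.

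**Figure D4:**
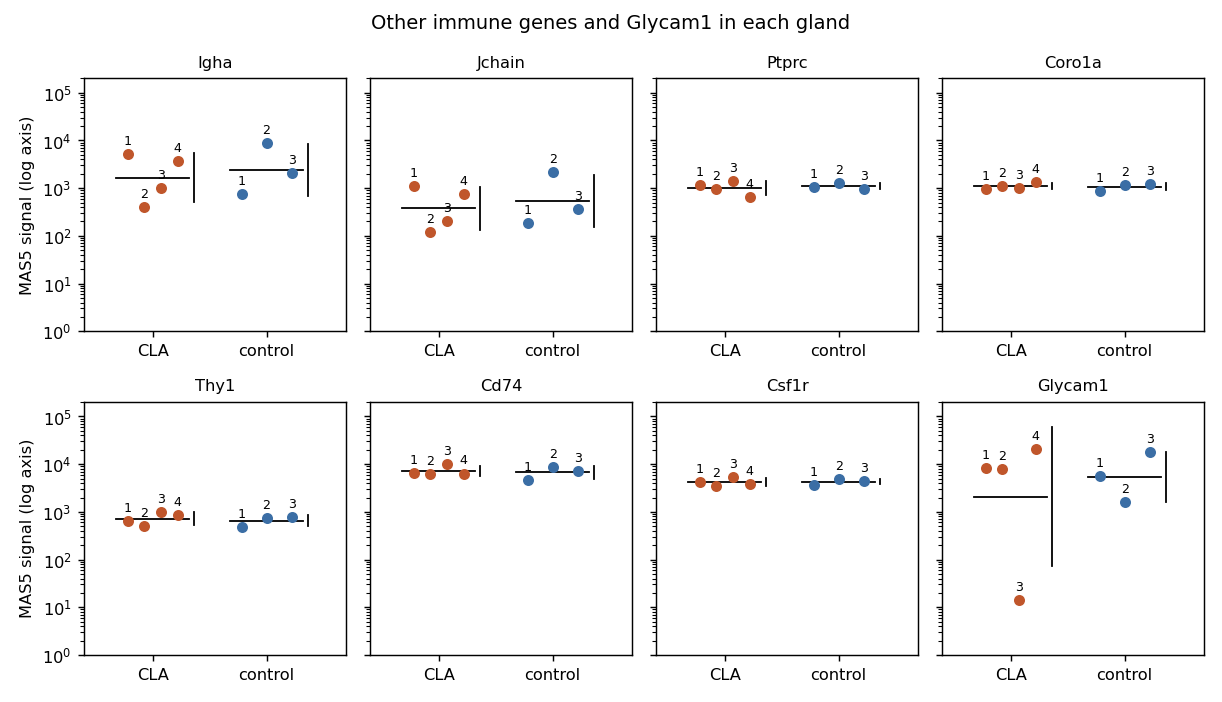
MAS5 signal (log axis) of 7 other immune genes and Glycam1, CLA glands on the left and control glands on the right of each panel, with the replicate number above each point. Horizontal lines are means and vertical lines 1 SD of log2 signal. Igha and Jchain spread over more than 17-fold within the 7 glands while Ptprc and Coro1a stay within 2.21-fold and 1.53-fold.

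Markers of lymphatic vessels, high endothelial vessels and lymph node stroma gave 0 calls. Of 11 such genes 7 passed the filter and 0 were called, with a median of 0.06 over the 11. Pdpn, a surface protein of lymphatic endothelium and fibroblasts, had a change of 0.40 and Lyve1, a lymphatic hyaluronan receptor, -0.26. The other Lyve1 probe set had 0.04. Glycam1, made by high endothelial vessels and also secreted into milk by mammary epithelium, had 8399, 7993, 14.1 and 20328 on CLA replicates 1 to 4, against 5645, 1605 and 17914 on control replicates 1 to 3. Its lowest gland, CLA replicate 3, was the gland with the highest Il7r and Ccr7 signals and the array with the Actb ratio of 2.78. The part of RNA quality in the Glycam1 reading was not tested. Among the non-immune lists, 0 of 12 luminal, 0 of 10 basal, 0 of 8 adipocyte and 0 of 10 muscle markers were called, with medians of 0.06, 0.19, -1.58 and -4.12. At an unadjusted limma p under 0.05 all 8 adipocyte and all 10 muscle markers were lower in CLA glands, and 3 basal markers and 1 luminal marker were higher. Over all genes tested the share was 5.39%, in either direction. Markers of the same tissue can vary together, so these counts are not independent results. In these lists the genes of smallest p were Krt7 (log2 change 0.45), Cldn7 (0.15) and Ehf (-0.20) for luminal cells and Krt17 (1.67), Krt5 (1.24) and Krt14 (1.40) for basal cells. For adipocytes they were Retn (-2.04), Cd36 (-1.50) and Fabp4 (-1.30), and for muscle Myl1 (-4.58), Atp2a1 (-3.77) and Ckm (-4.11). The other probe set of Krt17 had 0.01 and that of Ckm 0.15. Krt5 read 1476 on control replicate 1, against 579 and 559 on control replicates 2 and 3, which lacked the Xist signal of the other arrays. On the same arrays Krt14 read 1004 against 506 and 502, and Krt17 132 against 43.3 and 44.7. The readings of 43.3 and 44.7 lay within the range of the Y-linked probe sets. The part of the non-immune tissues in the signals of the members was not tested.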

How the data were processed

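Biotin-labelled RNA from 7 mammary glands was read on Affymetrix arrays (45101 probe sets, 1 sample each). The authors deposited linear signal intensities made with MAS5, per the submitters' processing notes, whose version is not stated there. A floor of 1 was applied before log2, with no pseudocount. Probe sets were named from GEO's platform annotation, with symbols looked up by Entrez identifier in RefSeq (GRCm38.p6): 34945 had 1 symbol, 932 several and 9160 none, and 64 control probe sets were left out. The brightest probe set stood for each of 18193 genes, and 12497 past the 40th percentile (signal 57.7) were tested. The diet difference (CLA minus control) came from lmFit and eBayes with trend in limma 3.58.1 (R 4.3.3), two-sided, with Benjamini-Hochberg adjustment and a threshold of 0.05. The fit was tested on simulated data. The small number of arrays limits precision.

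The members and lists were chosen with earlier results of these data known. Members are always named, as are the 3 genes of smallest p in each other list and the genes of most like pattern. Xist, the Y-linked genes, Igha, Jchain, Ptprc, Coro1a, Cd2, Cd3d, Cd4, Cd8a, Thy1, Cd74 and Csf1r were chosen after their values were seen. Alternatives covered scaling, pseudocounts, probe set means, filters, eBayes options, array weights, an unequal-variance test, title numbers and left-out arrays, and 1 without control replicates 2 and 3 was added after seeing the data. Figures used matplotlib 3.10.9.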

Additional observations from a re-analysis of the deposited data

Results flagged for a closer look

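In 63 genes checked, 4 had a CLA gland far from the other 3 CLA glands by Dixon's criterion, and chance flags about 5% of groups of 4. Glycam1 read 14.1 on CLA replicate 3, against 7993 to 20328 on the other CLA arrays. Cd74, the invariant chain of MHC class II, read 10135.5 on CLA replicate 3, against 6259 to 6643. CLA replicate 3 was the array with the Actb ratio of 2.78, and the part of RNA quality was not tested. Evi2a, a gene of blood-derived cells, read 514 on CLA replicate 1, against 324 to 342. Cd209a, a dendritic cell lectin, read 193 on CLA replicate 4, against 77.8 to 88.4. None of the 9 members was among these 4 genes.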

How the results depend on the processing

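Under 20 of the 22 alternatives at least 1 member was tested, and 0 members were called under each of those 20, with limma or unequal-variance adjusted p-values between 0.261 (Ltb with array weights) and 1.00. At an unadjusted p under 0.05 each of the 20 gave 0 or 1 member, and over all genes the count ran from 303 (without control replicates 2 and 3, which leaves 1 control array whose spread is taken from the CLA arrays) to 1945 (array weights), against 674. The 60th percentile filter left no member to test. Over the 22 alternatives, several of which change the test or filter and leave the difference as it is, the log2 differences ranged from 0.29 to 0.87 for Cd22, -1.03 to -0.04 for Cd3g, -1.62 to -0.44 for Cd3e, 0.30 to 1.50 for Il7r, -1.81 to 0.13 for Ltb and -3.44 to 1.74 for Cd79a. The median over the 9 members was -0.44 for the array pair of the 27 series, and it ran from -0.20 to 0.05 with 1 array left out. The cause was not tested. Over all genes, array weights called 1 higher and 2 lower, arrays of the 28 series gave 1 higher, and the fit without CLA replicate 4 gave 17 lower and without control replicate 1 gave 2 higher. Median centring moved the median change of all genes to 0.10. The labels give no replicate numbers, so arrays were not paired by number. With the title number series as a block, Cd3g had -0.78 (unadjusted p 0.0451, limma adjusted p = 0.657). Signals near those of the Y-linked probe sets limit what can be read from Ccr7 on all arrays and from Cd79a, Cd79b, Ms4a1 and Cd3e on most of them.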
